A study of Mus musculus with 26 samples.

Results

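The very long transcript clusters of mouse liver were followed through total RNA and through immunoprecipitates (IP) of the RNA-binding protein hnRNPK from cytoplasm and nucleus. A cluster is a group of isoforms (transcript models) with 1 gene number in the deposited tables. A cluster was included if its longest isoform was 10000 nt or more, it had fewer than 10 isoforms, its estimated counts summed to 1000 or more over the 12 total RNA libraries, and its mean level in wild-type total RNA was under 1500 CPM (counts scaled to the same library size). The rule took 189 of 31469 clusters. In all, 286 clusters had an isoform that long, of which 13 had too many isoforms, 86 had too few counts and 1 was above the CPM limit, at 6289 CPM. Total RNA levels thus chose the clusters, and the IP values did not. The shortest included cluster was 10040 nt and the longest one just under the limit 9984 nt, while the lowest included sum of counts was 1002 and the highest just under the limit 962.

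hnRNPK is a heterogeneous nuclear ribonucleoprotein that binds C-rich stretches of RNA and DNA through KH domains and moves between nucleus and cytoplasm. It takes part in splicing, RNA stability and translation. In RNA immunoprecipitation, RNA that comes down with an antibody on beads is sequenced, and RNA that sticks to the beads without the antibody's target is collected too, which is what a control IgG measures. A long transcript gives more sequencing fragments per molecule than a short one, so levels of different clusters can be compared only per length.

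Wild-type mice were C57BL/6J on normal diet, high-fat mice were C57BL/6J on high-fat diet, and ob/ob mice were B6.V-Lepob/J on normal diet, which lack leptin in every tissue and become obese. Each of the 3 mouse groups had 2 replicates of total RNA, of cytoplasmic IP and of nuclear IP, and the 2 libraries of each total RNA replicate were summed, giving 18 units. Cytoplasmic and nuclear extracts of liver had been passed over beads with IgG before the hnRNPK antibody. IgG controls were 1 cytoplasmic and 1 nuclear library from mixed mice, whose titles name IgG and whose molecule label reads hnRNPK-bound RNA. Total RNA of whole liver is the reference for both extracts, whose own inputs are not used here, so fold over it carries both the fractionation and the precipitation. Nothing in the labels says that replicates are separate animals, so p-values measure the spread between these units, which may be technical.

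Total RNA units held 64209126 to 80521231 counts and IP units 5336060 to 12068891, against 338469 in cytoplasmic and 3116786 in nuclear IgG. After TMM scaling (trimmed mean of M values, which aligns most clusters between units), the cytoplasmic and nuclear IP units of high-fat replicate 2 stood apart, with factors of 0.656 and 0.616 against 0.828 to 0.915 and 0.894 to 1.07 in the other IP units. All 189 clusters passed the filter on low counts. Total RNA units had a median of 1431 to 2287 counts per very long cluster, cytoplasmic IP units 85 to 139, nuclear IP units 51 to 167, cytoplasmic IgG 10 and nuclear IgG 73. The deposited files pair no identifier with a gene symbol, so a cluster is named by its most counted isoform, and at most 2 higher and 2 lower are named per comparison. Roles and sequences of the named clusters are therefore not given here.

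The 189 clusters had a median longest isoform of 11517 nt (quartiles 10719 and 13391). The longest reached 83437 nt, followed by 47609 and 23495 nt. A single isoform was listed for 25 of them and several for 164, with a median of 4. In total RNA the most counted isoform was itself 10000 nt or longer in 171 clusters and shorter in 18, and 3 clusters had under 1% of their counts on isoforms that long. Per length, their median level in wild-type total RNA was 4.27 TPM (RSEM's level per length), against 11.5 TPM for 10972 shorter clusters that met the same limits on isoforms, counts and CPM. Together they took 0.658% to 0.879% of the counts of total RNA units, with 0.268% to 0.423% for the cytoplasmic and 0.320% to 0.574% for the nuclear IP units. Those ranges did not overlap between total RNA and either IP, and both IgG libraries were within the total RNA range, at 0.821% and 0.820%.

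Cytoplasmic hnRNPK IP held less of most very long clusters than total RNA did. By edgeR's quasi-likelihood test at an adjusted p of 0.05, 139 of the 189 (73.5%) were lower in cytoplasmic IP and 19 (10.1%) were higher, where 41.2% of all 13516 tested clusters were lower and 36.0% higher. The median log2 fold over total RNA was -0.87 (quartiles -1.63 and -0.27), against -0.11 over all tested clusters and -0.11 over the shorter clusters under the same limits. By 2-fold or more, 86 of them were lower and 4 higher, against 26.3% and 20.2% of all tested clusters. With scaling by library size alone, all tested clusters moved to a median of -0.62 and these clusters to -1.40.

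Of the clusters higher in cytoplasmic IP, uc007sus.1 and uc009nid.1 had the largest changes among those whose units did not overlap. Cluster uc007sus.1 measured 1.41 to 2.21 CPM in total RNA (median 2.08, 6 units) and 17.8 to 40.2 CPM in cytoplasmic IP (median 34.0). Every IP unit was above every total RNA unit, a log2 fold of 3.94 ± 0.12 (SE; edgeR adjusted p = 2e-12), and cytoplasmic IgG held 0 counts of it. Its counts, however, were on an isoform of 3513 nt, and its 10159-nt isoform had 0.439% of its total RNA counts. Cluster uc009nid.1 has a single isoform of 16439 nt. It measured 6.32 to 10.7 CPM in total RNA (median 8.08) and 19.2 to 42.7 CPM in cytoplasmic IP (median 26.8), a log2 fold of 1.84 ± 0.11 (edgeR adjusted p = 1.4e-09). Cytoplasmic IgG, with 41.2 CPM, was near the top of its IP range.

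Among the lower clusters, uc029vwb.1, of 19545 nt, was at 2.19 to 32.0 CPM in total RNA (median 6.79) and at 0 to 1.77 CPM in cytoplasmic IP (median 0.37). No IP unit reached the lowest total RNA unit, and the log2 fold was -4.26 ± 0.63 (edgeR adjusted p = 5.6e-05), from 28 counts over the 6 IP units against 5398 over the 6 total RNA units. By library size that is 26.6-fold lower (exact 95% interval 18.4 to 40.1, counting error only). Of the 28 counts, 15 were in wild-type mice, whose 2 cytoplasmic IP units had 0 and 1.77 CPM, and the log2 fold was -6.96 without wild-type cytoplasmic IP replicate 1 and -6.01 without high-fat cytoplasmic IP replicate 2. Cluster uc029qrp.1, whose most counted isoform has 9020 nt, was at 5.41 to 27.2 CPM in total RNA (median 16.1) and at 0.59 to 2.39 CPM in cytoplasmic IP (median 1.15). The ranges did not overlap, with a log2 fold of -3.60 ± 0.36 (edgeR adjusted p = 3.2e-07). Cytoplasmic IgG held 10.8 CPM of it, from only 5 counts, within the total RNA range.

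Nuclear IP showed the same lean with a smaller shift. There 117 of 189 clusters (61.9%) were lower than in total RNA and 31 (16.4%) higher, against 42.5% and 32.2% of all tested clusters. Their median log2 fold was -0.54 (quartiles -1.19 and -0.02), against -0.18 over all tested clusters. By 2-fold or more, 61 were lower and 8 higher, against 28.5% and 16.4%. Scaled by library size alone, 142 were lower and 16 higher, against 51.7% and 21.1% of all tested clusters, with a median of -0.90 where all tested clusters had -0.54. Both IPs are set against the same total RNA units, so their calls are not independent of each other.

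The highest nuclear fold was that of uc007sus.1, with 66.6 to 129 CPM in nuclear IP (median 79.3), all above its total RNA units, and a log2 fold of 5.48 ± 0.13 (edgeR adjusted p = 4.6e-13). Nuclear IgG held 43.3 CPM of it. Cluster uc009bke.2, of up to 15723 nt, was at 18.9 to 31.6 CPM in total RNA (median 22.2) and at 103 to 134 CPM in nuclear IP (median 115). Its log2 fold was 2.34 ± 0.10 (edgeR adjusted p = 5.8e-11), 95.3% of its total RNA counts were on isoforms of 10000 nt or more, and nuclear IgG held 86.1 CPM.

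Cluster uc029vwb.1 had no count in any of the 6 nuclear IP units, with 5398 counts in total RNA. Taking a floor of 3 counts over the 6 nuclear units and scaling by library size, it was at least 179-fold lower in nuclear IP (edgeR adjusted p = 1.4e-05). That bound pools the mouse groups and rests mostly on ob/ob total RNA, with 3717 counts against 929 in wild-type and 752 in high-fat mice. Cluster uc007pmj.1, of 11806 nt, fell from 17.7 to 29.7 CPM in total RNA (median 20.8) to 0.989 to 2.88 CPM in nuclear IP (median 1.90). Its log2 fold was -3.60 ± 0.25 (edgeR adjusted p = 5.8e-09), the ranges were apart, and nuclear IgG was inside the IP range, at 2.34 CPM.

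**Figure D1:**
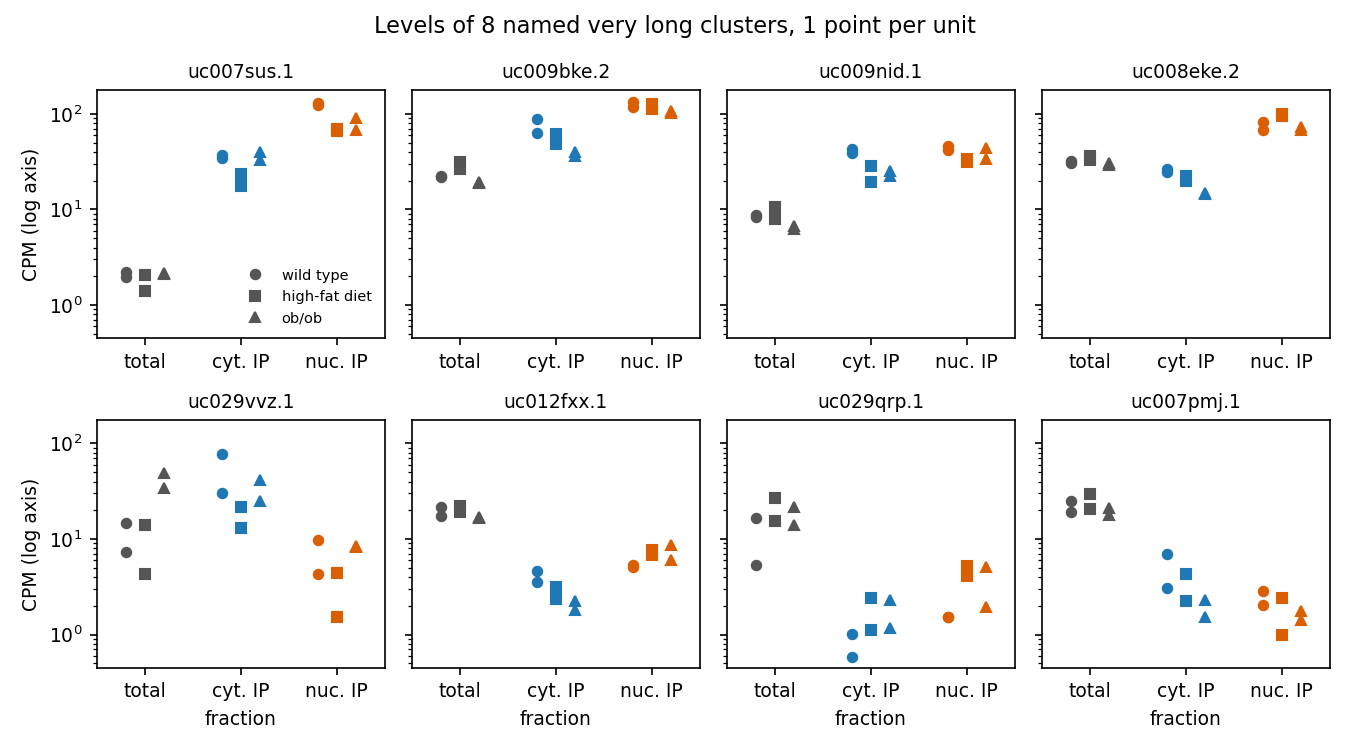
Level in CPM (log axis) of 8 named very long clusters in total RNA (grey), cytoplasmic IP (blue) and nuclear IP (orange), 1 point per unit, with the 3 mouse groups as circles, squares and triangles. In uc007sus.1 and uc009bke.2 nuclear IP is highest and total RNA lowest, and in uc012fxx.1, uc029qrp.1 and uc007pmj.1 every IP unit is below every total RNA unit.

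The longest cluster and the most counted one were both lower in the 2 IPs. Cluster uc012fxx.1, a single isoform of 83437 nt, had 16.8 to 22.2 CPM in total RNA (median 18.3), against 1.79 to 4.60 CPM (median 2.78) when precipitated from cytoplasm and 5.10 to 8.73 CPM (median 6.43) from nuclei. All nuclear units were above all cytoplasmic units and below all total RNA units. The log2 fold over total RNA was -2.74 ± 0.14 in cytoplasm (edgeR adjusted p = 1.5e-10) and -1.54 ± 0.13 in nucleus (edgeR adjusted p = 3.8e-08). Its IgG levels, 19.5 CPM in cytoplasm (only 9 counts) and 13.6 CPM in nucleus, were above all IP units of their compartment. Cluster uc007hjx.1, with a 14891-nt longest isoform and the highest CPM in wild-type total RNA among the 189 (54.8 TPM per length), was at 256 to 491 CPM in total RNA (median 431), 110 to 231 in cytoplasmic IP (median 126) and 87.7 to 142 in nuclear IP (median 120). Its log2 fold was -1.42 ± 0.15 in cytoplasm (edgeR adjusted p = 6.3e-07) and -1.67 ± 0.15 in nucleus (edgeR adjusted p = 1.3e-07), and IgG held 349 and 202 CPM.

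The 2 IPs can be compared with each other without total RNA, which the rule used. Very long clusters were more often higher in nuclear IP: 98 of 189 (51.9%) were higher there and 19 (10.1%) higher in cytoplasmic IP, against 31.0% and 33.6% of all tested clusters. Their median log2 ratio of nuclear to cytoplasmic IP was 0.39 (quartiles -0.07 and 0.82), against -0.04 over all tested clusters. A ratio of 2-fold or more was called for 32 towards the nucleus and for 6 towards the cytoplasm, against 13.3% and 19.4%.

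Cluster uc008eke.2, of 12449 nt, had 14.7 to 26.7 CPM in cytoplasmic IP (median 21.0) and 67.6 to 99.5 CPM in nuclear IP (median 77.3). Total RNA lay between the IPs at 29.5 to 36.6 CPM, with no overlap, and the nuclear over cytoplasmic log2 ratio was 2.00 ± 0.08 (edgeR adjusted p = 5.7e-11). IgG had the same order, with 32.5 CPM in cytoplasm and 81.2 CPM in nucleus, so the nuclear IgG value was inside the nuclear IP range. Cluster uc008jof.1, of up to 10805 nt, had 0.272 to 0.708 CPM in cytoplasmic IP (median 0.582) and 1.17 to 2.97 CPM in nuclear IP (median 1.56), a log2 ratio of 1.69 ± 0.26 (edgeR adjusted p = 3.6e-05). Both IPs were below its total RNA units, at 3.79 to 6.39 CPM. The ratio rests on 27 counts over the 6 cytoplasmic and 70 over the 6 nuclear units. IgG held 2.17 CPM in cytoplasm, from 1 count, and 2.34 CPM in nucleus, inside the nuclear IP range.

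In the other direction, uc029vvz.1, of 11651 nt, had 13.2 to 77.9 CPM in cytoplasmic IP (median 27.8) and 1.52 to 9.72 CPM in nuclear IP (median 6.38). The ranges were apart and the log2 ratio was -2.43 ± 0.39 (edgeR adjusted p = 6.6e-05), although units of either IP differed several-fold among themselves. IgG had the same order, with 19.5 CPM in cytoplasm (only 9 counts) and 4.68 CPM in nucleus, each inside the IP range of its compartment. Its cluster number, 22903, is close to that of uc029vwb.1, 22906, which was nearly absent from both IPs. Cluster uc007yht.1, of 12674 nt, had 3.71 to 8.31 CPM in cytoplasmic IP (median 6.07) and 1.78 to 2.73 CPM in nuclear IP (median 1.90), a log2 ratio of -1.53 ± 0.17 (edgeR adjusted p = 1.4e-06). It was lower in both IPs than in total RNA, at 8.92 to 12.8 CPM. IgG held 6.51 CPM in cytoplasm (only 3 counts) and 9.60 CPM in nucleus, the latter above all nuclear IP units. Isoforms of 10000 nt or more took 92.8% of its total RNA counts, 22.3% of its cytoplasmic and 19.9% of its nuclear IP counts, so the ratio was mostly of shorter isoforms.

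**Figure D2:**
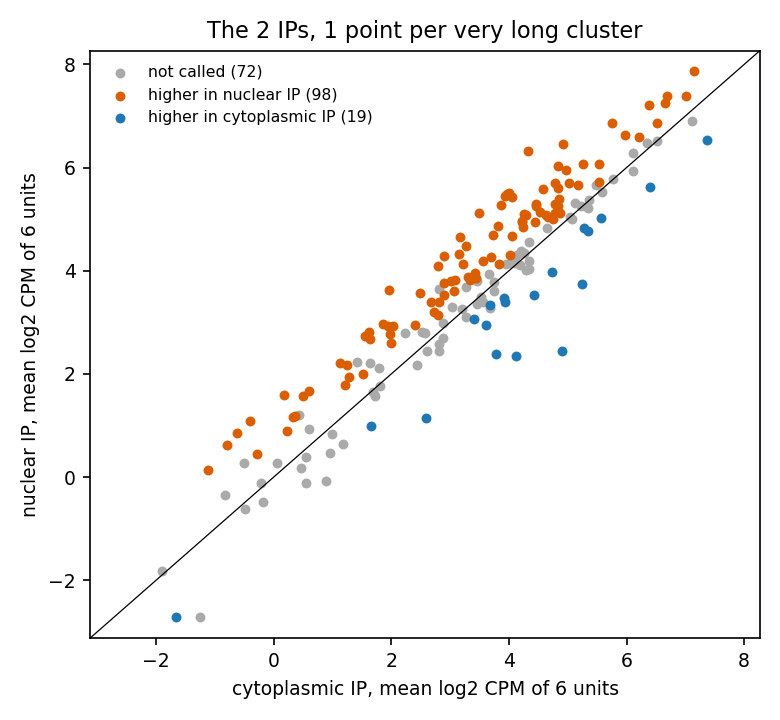
Mean log2 CPM over 6 units in cytoplasmic IP (horizontal) and nuclear IP (vertical) for the 189 very long clusters, coloured by the test of nuclear against cytoplasmic IP, with the line of equal levels. The 98 clusters higher in nuclear IP lie above the line over the whole range of levels, and 19 lie below it as higher in cytoplasmic IP.

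The shift in cytoplasmic IP was graded over shorter clusters and did not go on within the very long ones. Under the same limits on isoforms, counts and CPM, the median log2 fold in cytoplasmic IP was 0.49 for clusters of 1000 to 2000 nt (n = 2250), -0.14 for 2000 to 4000 nt (n = 4744), -0.49 for 4000 to 6000 nt (n = 2264), -0.65 for 6000 to 8000 nt (n = 756) and -0.80 for 8000 to 10000 nt (n = 265). It was -0.85 for 10000 to 11000 nt (n = 70), -0.96 for 11000 to 13000 nt (n = 66), -0.95 for 13000 to 16000 nt (n = 32) and -0.73 for 16000 nt or more (n = 21). Clusters of 8000 to 10000 nt, just outside the rule, were lower in cytoplasmic IP in 74.3% of cases, close to the 73.5% of the very long ones. The limit of 10000 nt therefore marks no step in these values.

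In nuclear IP the median was -0.03 at 1000 to 2000 nt and -0.18 at 2000 to 4000 nt, below the cytoplasmic -0.14 of that class. From 4000 nt upward it was nearer 0 than in cytoplasmic IP in each length class, from -0.27 at 4000 to 6000 nt and -0.42 at 8000 to 10000 nt to -0.33, -0.77, -0.66 and -0.42 in the 4 classes of very long clusters. The nuclear over cytoplasmic ratio rose with length from a median of -0.50 at 1000 to 2000 nt to 0.50 at 8000 to 10000 nt and 0.64 at 10000 to 11000 nt, and was 0.18, 0.35 and 0.14 in the 3 longer classes. Over the 189 clusters, Spearman's rho of the longest isoform with the cytoplasmic fold was 0.03, with the nuclear fold -0.13 and with the ratio of the 2 IPs -0.25. The clusters share their libraries, and the values are descriptions. The number of isoforms made little difference, with cytoplasmic medians of -0.81 in the 25 clusters with 1 isoform and -0.88 in the 164 with several.

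**Figure D3:**
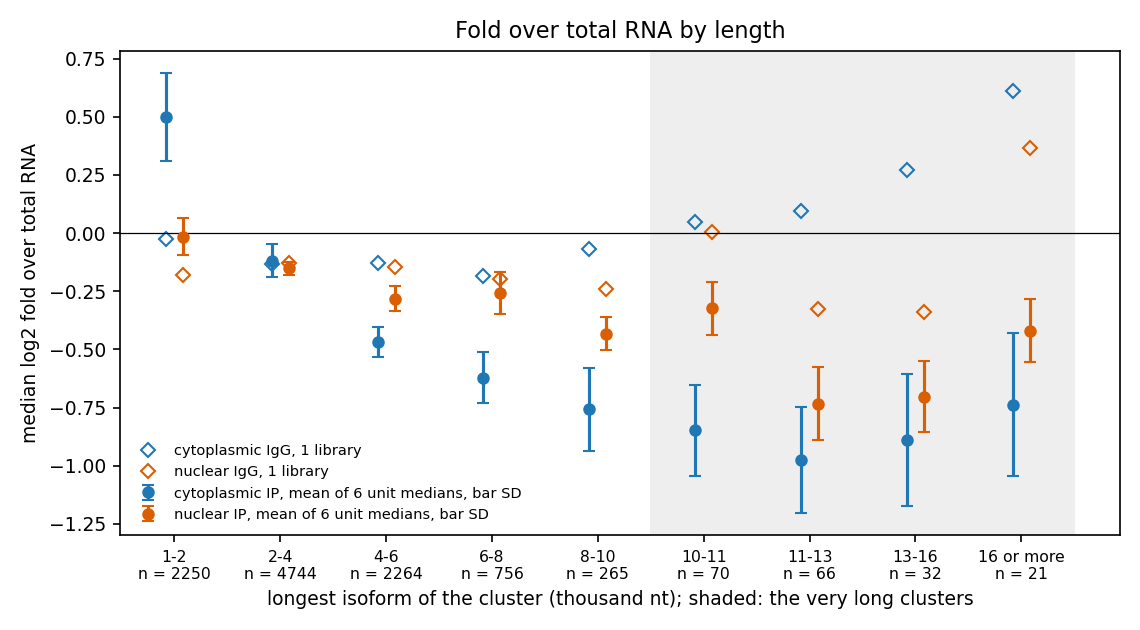
Median log2 fold over total RNA of clusters grouped by longest isoform, as the mean of 6 unit medians with SD for cytoplasmic IP (blue circles) and nuclear IP (orange circles) and as single IgG libraries (diamonds). Cytoplasmic IP falls with length up to about 10000 nt and then levels off, and cytoplasmic IgG is above cytoplasmic IP from 4000 nt upward.

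IgG held more of the very long clusters than the IPs did. Over total RNA, their median log2 fold was 0.13 in cytoplasmic IgG and -0.16 in nuclear IgG, while the units of cytoplasmic IP had medians of -1.12 to -0.53 and those of nuclear IP -0.73 to -0.41. Over the 4 length classes from 10000 nt upward, cytoplasmic IgG had medians of 0.05, 0.10, 0.27 and 0.61 and nuclear IgG 0.01, -0.33, -0.34 and 0.37. In cytoplasm 66.1% of the 189 clusters were below IgG in all 6 IP units and 6.35% (12 clusters) above it in all 6, against 41.3% and 30.1% of all tested clusters. Of the 139 clusters lower than total RNA, 112 were also below cytoplasmic IgG in all 6 units, a share of 80.6% where the lower ones among shorter clusters had 61.9%. Of the 19 higher ones 4 were above it, a share of 21.1% against 70.1% among shorter clusters. In nucleus 71 (37.6%) were below IgG in all 6 units and 24 (12.7%) above, against 23.2% and 23.5% of all tested clusters. Of the 31 clusters higher than total RNA, 14 were above nuclear IgG in all 6 units, a share of 45.2% close to the 48.3% of shorter clusters. IgG rests on 1 library per compartment and has no replicate check, and 90 of the 189 clusters had under 10 counts in cytoplasmic IgG.

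The isoforms counted within a cluster also differed between IP and total RNA. In the 164 clusters with several isoforms, isoforms of 10000 nt or more took 77.8% ± 2.03 (SD, n = 6 units) of the counts in total RNA, 63.4% ± 2.45 in cytoplasmic IP and 58.4% ± 1.52 in nuclear IP. The lowest total RNA unit, at 75.6%, was above the highest cytoplasmic unit, at 67.8%, and the highest nuclear unit, at 59.5%. IgG was at 61.3% in cytoplasm and 52.7% in nucleus, also below total RNA. By TPM, which divides by length, the shares were 53.03%, 28.35% and 24.72%. All these shares are pooled over clusters, so the most counted clusters weigh most. The median share of counts of a single cluster was 91.78% in total RNA, 87.19% in cytoplasmic IP and 89.98% in nuclear IP (means of 6 units). Its unit ranges overlapped, at 90.02% to 94.3%, 83.56% to 93.59% and 82.16% to 94.87%.

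Cluster by cluster, the mean length of the counted isoforms was lower in all 6 cytoplasmic IP units than in all 6 total RNA units for 67 of 163 clusters (41.1%), where the same held for 50.3% of all clusters with several isoforms under the same limits, and it was higher for 25 (15.3% against 11.5%). For nuclear IP it was lower for 71 of 160 (44.4% against 53.3%) and higher for 26 (16.2% against 11.7%). Nuclear and cytoplasmic IP differed from each other in 9 of 160 clusters, 6 lower (3.75% against 5.09%) and 3 higher (1.88% against 1.91%) in nuclear IP. Shorter isoforms in IP were thus not more frequent among very long clusters than among all clusters. RSEM divides reads among overlapping isoforms, and where few reads tell isoforms apart the split is an estimate.

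The clusters with the largest differences, chosen after their values were seen, went both ways. Isoforms of 10000 nt or more of uc009alt.1 took 93.5% to 98.6% of its counts in total RNA (median 96.1%), 13.8% to 25.3% in cytoplasmic IP (median 19.5%) and 9.52% to 20.6% in nuclear IP (median 13.9%). The IgG libraries were at 40.2% and 28.2%, between IP and total RNA. For uc007ull.1 the cytoplasmic IP share was 0% to 22.4% (median 9.23%) against 78.0% to 99.1% (median 89.5%) in total RNA. In total RNA 89.3% of its counts were on a 10335-nt isoform, and in cytoplasmic IP 88.3% were on a 5537-nt isoform that had 10.5% in total RNA. In uc007uou.1 the share rose instead, from 57.4% to 64.4% in total RNA (median 61.1%) to 100% in all 6 cytoplasmic IP units and in both IgG libraries. In uc008jnd.2 it rose from 61.5% to 65.9% in total RNA (median 63.1%) to 99.3% to 100% in cytoplasmic IP (median 99.6%). Both rises were on long isoforms with few or no counts in total RNA. The 15118-nt isoform of uc007uou.1 fell from 60.7% in total RNA to 20.4% in cytoplasmic IP. A 13207-nt isoform took 79.6% there, against 0.0301% in total RNA. In uc008jnd.2 the 16505-nt isoform fell from 63.2% to 16.8%, and a 16348-nt isoform rose from 0% to 82.8%.

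The 73 clusters with 99% or more of their total RNA counts on isoforms of 10000 nt or more had a median of -0.93 in cytoplasmic IP. There 56 were lower and 6 higher, against 41.2% and 36.0% of all tested clusters. In nuclear IP their median was -0.65, with 52 lower and 11 higher, against 42.5% and 32.2%. With only isoforms of 10000 nt or more counted over all the very long clusters, the median log2 fold over total RNA was -1.56 in cytoplasmic IP and -1.28 in nuclear IP. All other clusters kept the counts of all their isoforms. The shares of all tested clusters given next are therefore not like for like. Of 187 very long clusters then tested, 153 were lower and 15 higher in cytoplasmic IP, against 41.4% and 35.9% of all tested clusters. In nuclear IP 143 were lower and 25 higher, against 42.6% and 32.2%. In nuclear against cytoplasmic IP 68 were higher and 24 lower, against 30.8% and 33.5%.

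**Figure D4:**
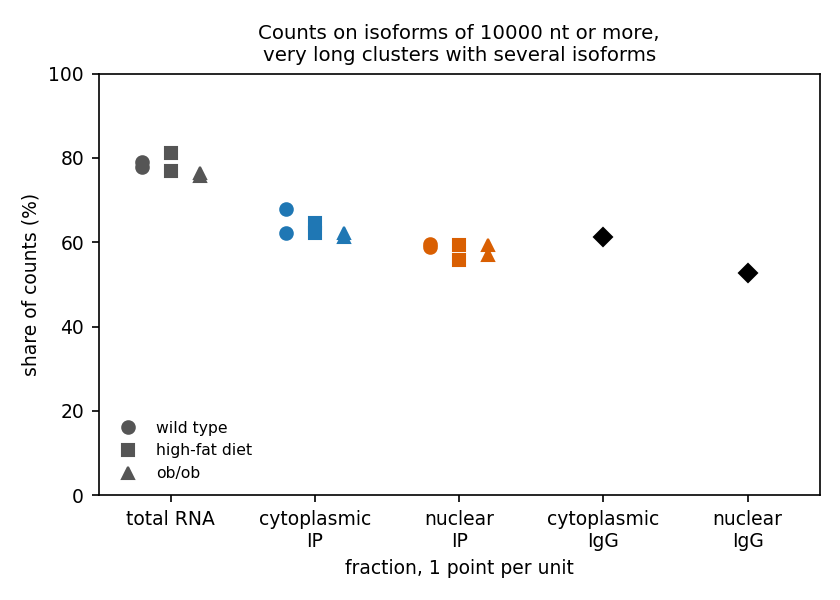
Share of counts (%) on isoforms of 10000 nt or more, pooled over the 164 very long clusters with several isoforms, 1 point per unit, with mouse groups as circles, squares and triangles and IgG libraries as diamonds. The 6 total RNA units, at 75.6% to 81.2%, are above all IP units and both IgG libraries.

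Very long clusters were further below total RNA in cytoplasmic IP of high-fat and ob/ob mice than of wild-type mice, but no single cluster passed the test of that difference. The median log2 fold over the 189 clusters was -0.53 and -0.64 in the 2 wild-type units, -1.02 and -0.93 in the high-fat units and -1.09 and -1.12 in the ob/ob units, each against the mean total RNA of its own mouse group. The groups did not overlap, and shorter clusters under the same limits had -0.18 to 0 in all 6 units. The 2 units of a group share that mean, so the spread of total RNA is not in these values. Within mouse groups, 98 clusters were lower in wild type, 126 in high-fat and 129 in ob/ob mice, against 29.7%, 32.2% and 33.8% of all tested clusters.

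For the difference itself, the log2 fold in cytoplasmic IP was lower in ob/ob than in wild-type mice by a median of -0.53 over the 189 clusters, where all tested clusters had 0.03. At an adjusted p of 0.05 edgeR called 0 of them (0.0074% of all tested clusters), with a smallest adjusted p of 0.13. At an unadjusted p under 0.05, 61 were lower and 1 higher, against 5.46% and 6.88% of all tested clusters. Both ob/ob units were below both wild-type units in 102 clusters and above in 10, against 17.6% and 32.0% of all tested clusters. The folds of a group's units share its total RNA mean here too. DESeq2 called 28 clusters, all lower, against 1.18% lower and 1.78% higher of all tested clusters. In simulated data of this design edgeR found 1.5% of 2-fold differences of this kind, so this design could rarely call changes of that size.

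High-fat against wild-type mice gave a median difference of -0.50 in cytoplasmic IP, where all tested clusters had -0.02. edgeR called 0 (0.0074% of all tested clusters; smallest adjusted p 0.30), 43 were lower and 0 higher at an unadjusted p under 0.05, against 3.80% and 6.09%. DESeq2 called 8, all lower, against 0.333% lower and 1.39% higher of all tested clusters. Both high-fat units were below both wild-type units in 101 clusters and above in 9, against 19.4% and 27.3%. The ob/ob and high-fat differences share the wild-type units, and the units of a group share its total RNA mean. Both differences were graded over length and not particular to the very long clusters. At 8000 to 10000 nt the median was -0.315 for ob/ob and -0.393 for high-fat mice, and at 1000 to 2000 nt it was 0.275 and 0.296. Over the 4 classes from 10000 nt upward it was -0.39, -0.54, -0.53 and -1.01 for ob/ob mice and -0.40, -0.46, -0.65 and -0.75 for high-fat mice. The highest and lowest single differences did not pass. For ob/ob mice they were 1.47 ± 1.23 in uc007hzg.1 (edgeR adjusted p = 0.67) and -2.95 ± 1.48 in uc029vwb.1 (edgeR adjusted p = 0.45). For high-fat mice they were 1.36 ± 0.71 in uc008yfk.1 (edgeR adjusted p = 0.56) and -2.39 ± 0.77 in uc029ryi.1 (edgeR adjusted p = 0.35), a cluster of 47609 nt. In cytoplasmic IP uc029ryi.1 had 4.37 and 5.57 CPM in the high-fat units, 18.6 and 28.8 in the ob/ob units and 26.9 and 75.5 in the wild-type units, and its total RNA was also lowest in high-fat mice, at 13.5 and 36.3 CPM against 44.8 to 87.3 CPM in the other mice.

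In nuclear IP the mouse groups were closer together. Unit medians were -0.50 and -0.41 in wild type, -0.73 and -0.52 in high-fat and -0.52 and -0.41 in ob/ob mice. The median difference from wild type was -0.05 for ob/ob mice, where all tested clusters had 0.02, and -0.25 for high-fat mice, where all tested clusters had -0.04. Clusters of 8000 to 10000 nt had -0.0635 and -0.189, so these differences were not particular to the very long clusters. edgeR called 0 clusters in either (0.0148% and 0.0296% of all tested clusters; smallest adjusted p 0.18 and 0.16). DESeq2 called 4 for ob/ob mice, where 1.24% of all tested clusters were higher and 1.29% lower, and 2 for high-fat mice, where 1.09% were higher and 0.695% lower. At an unadjusted p under 0.05, 14 were lower and 11 higher in ob/ob mice, against 5.85% and 6.67%, and 17 lower and 3 higher in high-fat mice, against 5.44% and 5.11%. The extremes were 1.83 ± 1.16 in uc009qrr.1 (edgeR adjusted p = 0.54) for ob/ob mice, and 1.97 ± 0.76 in uc009izh.2 (edgeR adjusted p = 0.39) and -1.46 ± 0.38 in uc008lpo.1 (edgeR adjusted p = 0.19) for high-fat mice.

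The ratio of nuclear to cytoplasmic IP had unit medians of 0.16 and 0.27 in wild type and 0.31 and 0.44 in high-fat mice. In ob/ob mice they were 0.58 and 0.71, without overlap between groups, and shorter clusters had -0.05 to 0. Each nuclear unit was set against the mean of its group's cytoplasmic units, so the spread of cytoplasmic IP is not in these values. Within groups, 46 clusters were higher in nuclear IP in wild type, 60 in high-fat and 96 in ob/ob mice, against 22.2%, 20.9% and 22.2% of all tested clusters. The median difference from wild type was 0.49 for ob/ob and 0.25 for high-fat mice. Clusters of 8000 to 10000 nt, for ob/ob and high-fat mice, had -0.315 and -0.393 in the cytoplasmic fold and -0.0635 and -0.189 in the nuclear fold. The difference of the ratio is therefore not shown to be particular to the very long clusters. edgeR called 0 clusters for either difference and 0 of all tested clusters, and at an unadjusted p under 0.05 it found 52 higher and 2 lower for ob/ob mice, against 4.96% and 5.53%, and 29 higher and 8 lower for high-fat mice, against 6.39% and 7.23%.

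**Figure D5:**
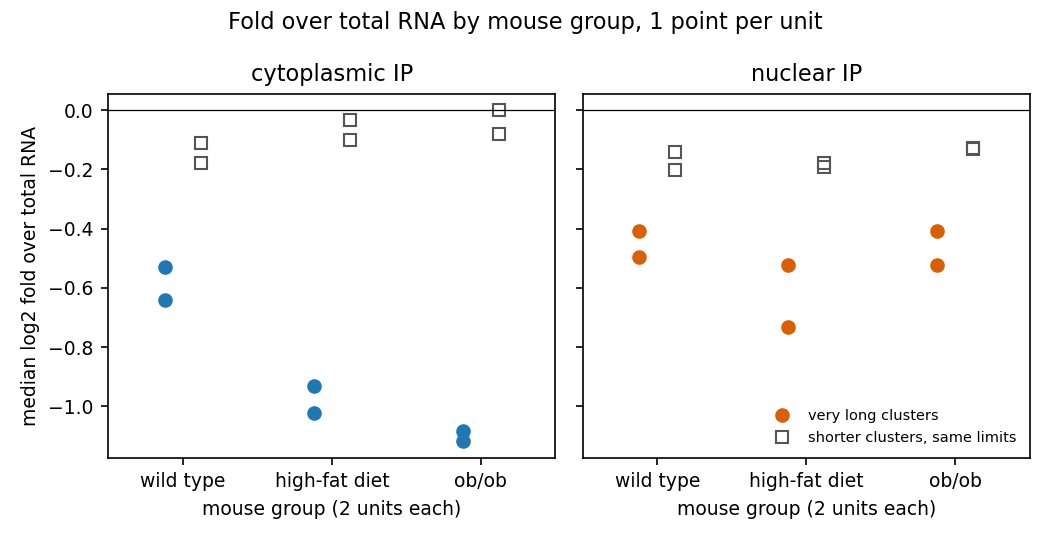
Median log2 fold over mean total RNA of the same mouse group for the 189 very long clusters (filled circles) and for shorter clusters under the same limits (open squares), 1 point per unit, in cytoplasmic IP (left) and nuclear IP (right). In cytoplasmic IP the wild-type units are at -0.53 and -0.64 and all other units between -1.12 and -0.93, while in nuclear IP ob/ob and wild-type units overlap.

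In total RNA, edgeR's test called few of the very long clusters between mouse groups. Their median log2 fold was -0.11 for ob/ob and 0.08 for high-fat against wild-type mice, and -0.20 for ob/ob against high-fat mice. All tested clusters had 0.004, 0.01 and 0.01, and shorter clusters under the same limits -0.044, -0.003 and -0.019. The fold was negative in 126, 58 and 143 of the 189 clusters, against 7671, 7316 and 7491 of all 15487 tested. Among the 10972 shorter clusters it was negative in 6131, 5547 and 5799. In ob/ob against wild-type mice edgeR called 4 of the 189 higher and 2 lower, against 0.684% and 0.891% of 15487 tested clusters. At an unadjusted p under 0.05, 16 (8.47%) were higher and 35 (18.5%) lower, against 13.9% and 13.0%. Shorter clusters under the same limits had 11.2% and 16.2%. DESeq2 called 11 higher and 15 lower, against 6.48% and 7.10% of all tested clusters. The named clusters below were not called without either ob/ob total RNA replicate. The number of calls also changed with the wild-type replicate left out. Such fits leave 1 unit in a group, so their calls are not compared with those of all tested clusters.

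Cluster uc008wiw.2, of up to 10682 nt, had 30.3 and 34.9 CPM in ob/ob, 9.88 and 10.6 in wild-type and 7.61 and 12.3 in high-fat total RNA, a log2 fold of 1.75 ± 0.23 for ob/ob over wild type (edgeR adjusted p = 0.04). Its ob/ob units were also the highest in both IPs, with 8.01 and 9.60 CPM in cytoplasm, where the others had 1.75 to 4.73, and 13.4 and 13.5 CPM in nucleus, where the others had 3.06 to 5.17. Cluster uc008oip.1, of 11388 nt, had 5.94 and 6.71 CPM in ob/ob and 2.33 and 2.59 in wild-type total RNA, a log2 fold of 1.44 ± 0.17 (edgeR adjusted p = 0.028). Among the lower clusters, uc007vdx.2, of up to 10162 nt, had 47.7 and 50.5 CPM in ob/ob, 65.7 and 73.3 in high-fat and 90.6 and 104 in wild-type total RNA, a log2 fold of -0.91 ± 0.10 (edgeR adjusted p = 0.026). The 3 mouse groups were apart in it, in that order. In total RNA 69.8% of its counts were on a 9876-nt isoform and 20.2% on the 10162-nt isoform. Cluster uc008oln.1, of 10109 nt, had 44.1 and 45.1 CPM in ob/ob and 73.7 and 88.0 in wild-type total RNA, a log2 fold of -0.79 ± 0.12 (edgeR adjusted p = 0.046).

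High-fat against wild-type total RNA gave 0 calls by edgeR among the 189 and among all tested clusters. At an unadjusted p under 0.05, 15 (7.94%) were higher and 3 (1.59%) lower, against 5.11% and 4.75%. Shorter clusters under the same limits had 5.18% and 5.62%. DESeq2 called 2 higher and 2 lower, against 0.936% and 1.13% of all tested clusters. Some clusters were called by edgeR when wild-type replicate 1 was left out, from a fit with 1 wild-type unit. ob/ob against high-fat total RNA gave 0 calls by edgeR (0.491% of all tested clusters). At an unadjusted p under 0.05, 11 (5.82%) were higher and 55 (29.1%) lower, against 9.99% and 11.9%. Shorter clusters under the same limits had 9.17% and 14.6%. DESeq2 called 8 higher and 27 lower, against 3.89% and 5.36% of all tested clusters.

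The extremes of both comparisons were uc011zcf.1 and uc007hzg.1, and neither passed edgeR's test. Cluster uc011zcf.1, whose longest isoform has 19328 nt and whose most counted isoform has 6665 nt, had 26.4 and 39.1 CPM in high-fat, 2.18 and 4.58 in wild-type and 3.73 and 5.53 in ob/ob total RNA. Its log2 fold for high-fat over wild type was 3.30 ± 0.43 (edgeR adjusted p = 0.20; DESeq2 adjusted p = 1.2e-12). Both high-fat units were above all other units in the IPs as well, with 32.0 and 40.1 CPM in cytoplasm, where the others had 2.12 to 5.69, and 28.2 and 35.0 CPM in nucleus, where the others had 1.07 to 3.42. Cluster uc007hzg.1, of up to 12258 nt, had 0.198 and 0.336 CPM in high-fat, 0.866 and 5.99 in wild-type and 2.14 and 2.52 in ob/ob total RNA. Its log2 fold for high-fat over wild type was -3.62 ± 0.91 (edgeR adjusted p = 0.38), and the 2 wild-type units differed from each other more than either did from ob/ob.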

How the data were processed

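Per the submitters' processing notes, RSEM 1.2.8, TopHat2 2.0.10, Bowtie2 2.1.0, SAMtools and bcl2fastq were used with build mm10, in roles and an order that the notes do not give. Per the file headers, the authors' tables hold RSEM expected counts (estimated counts), TPM and isoform length for 59121 transcripts in 26 libraries. Deposited TPM values were used for levels per length and as an alternative, and for no test. Per the labels' protocols, a TruSeq RNA kit was used. Whether counting used strand is not given, so antisense and overlapping clusters are uncertain.

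Expected counts were summed per cluster, over the 2 libraries of each total RNA replicate, and rounded. Clusters passing filterByExpr were tested with edgeR 4.0.16 (quasi-likelihood, TMM, Benjamini-Hochberg over all tested clusters), with 18 units in 1 fit for IP comparisons and 6 total RNA units in another for mouse groups. Each SE was taken as log2 fold change over the root of edgeR's F. Unit medians used log2 CPM with a prior count of 1. Each unit's fold was taken over the mean of its group's total RNA units. Each nuclear unit's ratio was taken over the mean of its group's cytoplasmic units. Named clusters had an adjusted p under 0.05, an average log2 CPM of 1 or more and units that did not overlap, ranked by log2 fold change, or, where no cluster passed, the highest and lowest; the longest and the most counted cluster were added. The members and lists were chosen with earlier results of these data known. The comparisons within and between mouse groups of nuclear with cytoplasmic IP, and of IP with total RNA within groups, were added to the fit of 18 units. In simulated counts edgeR found 89% of 2-fold changes of cytoplasmic IP against total RNA, 85.5% of nuclear against cytoplasmic IP and 57.5% of ob/ob against wild-type total RNA (200 changed clusters each). Alternatives were other scalings, DESeq2 1.42.0, no filter on low counts, a replicate block, each library as a replicate, each unit left out, other length limits, other limits on membership, long isoforms only and clusters chosen on total RNA replicate 1 with the fold taken against replicate 2; the last, the TPM share and the checks of mean isoform length were chosen after seeing the data. Gene lists, symbols and sequences were not used here.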

Additional observations from a re-analysis of the deposited data

Results flagged for a closer look

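Among the 6 nuclear IP units, high-fat replicate 1 had the lowest median log2 fold over total RNA of the very long clusters, at -0.73, apart from the other 5 units at -0.52 to -0.41. Its gap to the nearest unit was 0.642 of the whole range, more than a single unit of 6 is expected to show at the 95% level, and chance alone gives such a gap in about 1 in 20 groups of alike units. These 6 units came from 3 mouse groups, so that level is only a guide. High-fat replicate 2 was the next lowest, at -0.5242, beside ob/ob replicate 1 at -0.5231. Without high-fat replicate 1 the median difference of nuclear fold between high-fat and wild-type mice was -0.17 over the very long clusters, against -0.25 with it.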

How the results depend on the processing

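With scaling by library size alone, 5 clusters were higher in cytoplasmic IP and 16 in nuclear IP than in total RNA, against 21.6% and 21.1% of all tested clusters. In total RNA of ob/ob against wild-type mice 3 differed, where 0.252% of all tested clusters were higher and 0.336% lower. A length limit of 8000 nt (454 clusters) gave 45 higher and 336 lower in cytoplasmic IP, 74 and 268 in nuclear IP, 237 higher and 53 lower in nuclear against cytoplasmic IP, and 12 in total RNA of ob/ob mice; a limit of 12000 nt (75 clusters) gave 10 and 53, 10 and 48, 31 and 10, and 2. These limits change how many clusters are counted and not the fit, so the shares of all tested clusters stay as in the main results. DESeq2 called 26, 4 and 35 in total RNA (ob/ob and high-fat against wild type, ob/ob against high-fat), 28 and 8 for the cytoplasmic and 4 and 2 for the nuclear fold of ob/ob and high-fat mice. Each library as its own replicate gave 80, 25 and 91 (all tested clusters: 20.2% higher and 19.5% lower, 6.82% and 6.92%, 15.7% and 17.9%), then 37, 19, 10 and 4 (4.00% and 2.14%, 2.55% and 0.911%, 3.55% and 2.15%, 2.15% and 1.15%). No filter on low counts gave 2 for ob/ob against high-fat total RNA (all tested clusters: 0.197% higher and 0.53% lower). Other than where an alternative changes how many clusters are counted, the cause was not tested.

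Replicate numbers were not taken to pair the units, since they deviated together in 2 of the 3 mouse groups but not in high-fat mice: correlations of deviations between fractions were 0.33 to 0.384 in wild type, 0.236 to 0.286 in ob/ob and -0.108 to 0.085 in high-fat mice. With a replicate block edgeR called 0 in total RNA of ob/ob against wild-type mice (all tested clusters: 0.149% higher and 0.258% lower). For the cytoplasmic fold of ob/ob mice it called 5 (0.0888% higher and 0.148% lower). The block changed no other count by over 1.5 times. Leaving out each unit in turn gave 17 to 26 higher and 127 to 140 lower in cytoplasmic IP, 29 to 34 and 100 to 115 in nuclear IP, 85 to 103 and 14 to 20 in nuclear against cytoplasmic IP, 0 to 36 for ob/ob and 0 to 10 for high-fat against wild-type total RNA, 0 to 3 for the cytoplasmic fold of ob/ob mice (3 without wild-type cytoplasmic IP replicate 1), and 0 for the other fold differences.

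With clusters chosen on total RNA replicate 1 and folds taken against replicate 2 (184 clusters), the median log2 fold was -0.89 in cytoplasmic and -0.45 in nuclear IP. Mean isoform length was lower in nuclear IP for 40 of 80 clusters with 50 or more counts in every unit (58.9% of all such clusters). Direction reversed for the cytoplasmic fold of ob/ob mice in uc007hzg.1 (-0.33 with long isoforms only, -0.45 without wild-type total RNA replicate 2, and up to 3.86 with other units left out) and in uc029vwb.1 (5.13 without wild-type cytoplasmic IP replicate 1, and down to -3.90 with others left out), and for the nuclear fold of ob/ob mice in uc009qrr.1 (-1.33 with long isoforms only), none of which passed the test. Of 454 alternatives for named clusters, 422 kept direction and side of the threshold. Depth limits cytoplasmic IgG most, with a median of 10 counts per very long cluster.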
